A study of Mus musculus with 8 samples.

Results

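The NF-kB pathway and its inflammatory output were followed in cultured mouse peritoneal macrophages through 42 listed genes, which cover cytokines and effector enzymes, NF-kB subunits, inhibitors, receptors with their adaptors and kinases, co-stimulatory molecules and survival genes. Membership was by name in this list, with no threshold on a measured value. Each gene was read by its brightest named probe set over the 8 arrays, which left 39 of the 42 members among 18193 genes in all. Nfkb1, Irak4 and Ripk2 were not analysed here. Of the 39 members 20 had 1 probe set, 10 had 2, and 3 each had 3, 4 and 5.

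The cells came from male C57BL6/J mice injected with 3% thioglycolate and were collected on day 4 by adherence. All mice carried the floxed mineralocorticoid receptor alleles (MR fl / fl). Control mice had nothing further, and knockout mice also carried LysM cre, in which the LysM promoter drives Cre in macrophages and granulocytes and so deletes the receptor gene Nr3c2 there. Each genotype was cultured untreated or with 1 µM corticosterone, the main glucocorticoid of mice, for 24 h, which gave 4 groups of 2 arrays. The labels name no other stimulus in culture. A sample pooled triplicate experiments, and the labels do not say which animals gave each array. The p-values therefore reflect only how far these samples differ from each other, and that spread may be technical. The comparisons ask how corticosterone acts on these transcripts, and whether loss of the receptor changes their level or their response.

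NF-kB is a family of paired transcription factors held in the cytoplasm by IkB proteins. Signals from Toll-like, interleukin and TNF receptors pass through adaptors and kinases to the IkB kinase complex, which marks IkB for destruction and frees the dimers to switch on cytokine, adhesion and survival genes. Many of the genes switched on encode inhibitors of the pathway itself, among them IkB alpha. Glucocorticoids bound to their receptor restrain much of this output in macrophages and are known to raise some of the inhibitors.

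Values are log2 expression levels, so 1 unit is a doubling. Array medians lay between 5.55 and 5.58, and the number of arrays limits the precision. Control untreated replicate 2 stood apart: it correlated with the rest at a median of 0.916, while that value was 0.995 to 0.996 for the other 7, and its 3′ minus 5′ signal for Actb, which grows as RNA breaks, was 2.18 against 0.41 to 0.62. Its level was below all the other 7 arrays for 31 of the 39 members. That share was not counted over all genes. Over all genes the 2 control untreated arrays differed by a median of 0.472, against 0.0716 to 0.0964 between replicates of the other groups. For the members these medians were 0.904 and 0.0604 to 0.0636. Its fibroblast and mesothelial markers averaged 8.93 on that array against 6.93 to 7.37. Of this list Msln, Upk3b and Krt19 lay within the range of the other arrays, and the remaining markers lay above it. Results below come from the 7 other arrays unless 8 are named, so the control untreated group is 1 array, and the fit lends it the spread seen in the other groups. A gene was called at a limma adjusted p under 0.05 over all genes. Nr3c2, the deleted gene, read 6.39 and 8.46 in untreated control cells and 6.39 and 6.13 in treated ones. In knockout cells it read 5.54 and 5.82 untreated and 5.11 and 5.47 with hormone. It was lower in knockout cells by a log2 difference of -0.97 with hormone (SE 0.176, adjusted p = 0.029) and -0.71 without (adjusted p = 0.161, not called). Fkbp5, a glucocorticoid-induced co-chaperone, rose by 3.86 (SE 0.0482, adjusted p = 4.87e-10) in control and 3.62 (SE 0.0393, adjusted p = 1.39e-10) in knockout cells. The macrophage markers averaged between 12.29 and 12.54 on the 7 arrays.

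Corticosterone lowered a set of inflammatory transcripts in both genotypes, among them Acod1, Icam1, Relb, Tnf, Traf1 and Cd40, and raised Birc3, Nfkbia and Cflar. In control cells 10 members fell and 4 rose, 35.9% of the 39 members against 10.8% of all genes. In knockout cells 13 fell and 4 rose, 43.6% of the members against 13.7% of all genes. By direction, 5.95% of all genes fell and 4.85% rose in control cells, and 7.95% fell and 5.75% rose in knockout cells. Of the 18 members called in either genotype 13 were called in both, 10 lower and 3 higher. Of all 18193 genes 857 were called lower and 674 higher in both genotypes, and 15268 in neither. Called in control cells only were 207 higher and 225 lower, and in knockout cells only 372 higher and 589 lower. Calls shared by the genotypes were thus common beyond the members. The median difference of the members was -0.096 in control and -0.069 in knockout cells, against -0.0047 and -0.019 over all genes.

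These counts rest on the choice of arrays. With all 8 arrays limma called 0 of the 39 members in either genotype (0.17% and 0.148% of all genes), while 6 and 7 members had an unadjusted p under 0.05 (8.55% and 4.60% of all genes). In knockout cells the differences are the same with 7 and 8 arrays, since the added array is not in that comparison, and the SE was larger (for Tnf 0.501 against 0.0792). The lowest adjusted p was then that of Icam1, 0.0531 in control and 0.0528 in knockout cells. The 14 calls in control cells dropped to 6 without control corticosterone replicate 1 and 7 without replicate 2. Acod1, Icam1, Tnf, Cd40, Nfkbia and Birc3 passed both times; the calls that were lost, among Relb, Nfkbie, Tnip1, Tnfrsf1b, Traf1, Cd86, Cflar and Ccrl2, had adjusted p between 0.062 and 0.171. With control untreated replicate 2 in place of replicate 1 as the only untreated control, several differences turned in direction. Tnf then differed by 1.03, Relb by 1.20, Tnfrsf1b by 1.60 and Ccrl2 by 0.68. Cd40 differed by 0.43, Nfkbie by 0.19, Tnip1 by 0.08 and Nfkbia by -0.26. Acod1, Icam1, Traf1, Birc3, Cflar and Cd86 kept their direction. In knockout cells 13 to 17 calls were left without any 1 further array. Nfkb2 and Cflar lost theirs without knockout corticosterone replicate 2, Ccrl2 without its replicate 1, and Il10 and Tnfaip3 in most of these fits, with adjusted p between 0.0511 and 0.210. Without the trend of the variance on the level, 5 members were called in control cells, beside 853 of all 18193 genes. In knockout cells 10 members were called in that fit, a count not set beside the share of all genes here.

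**Figure D1:**
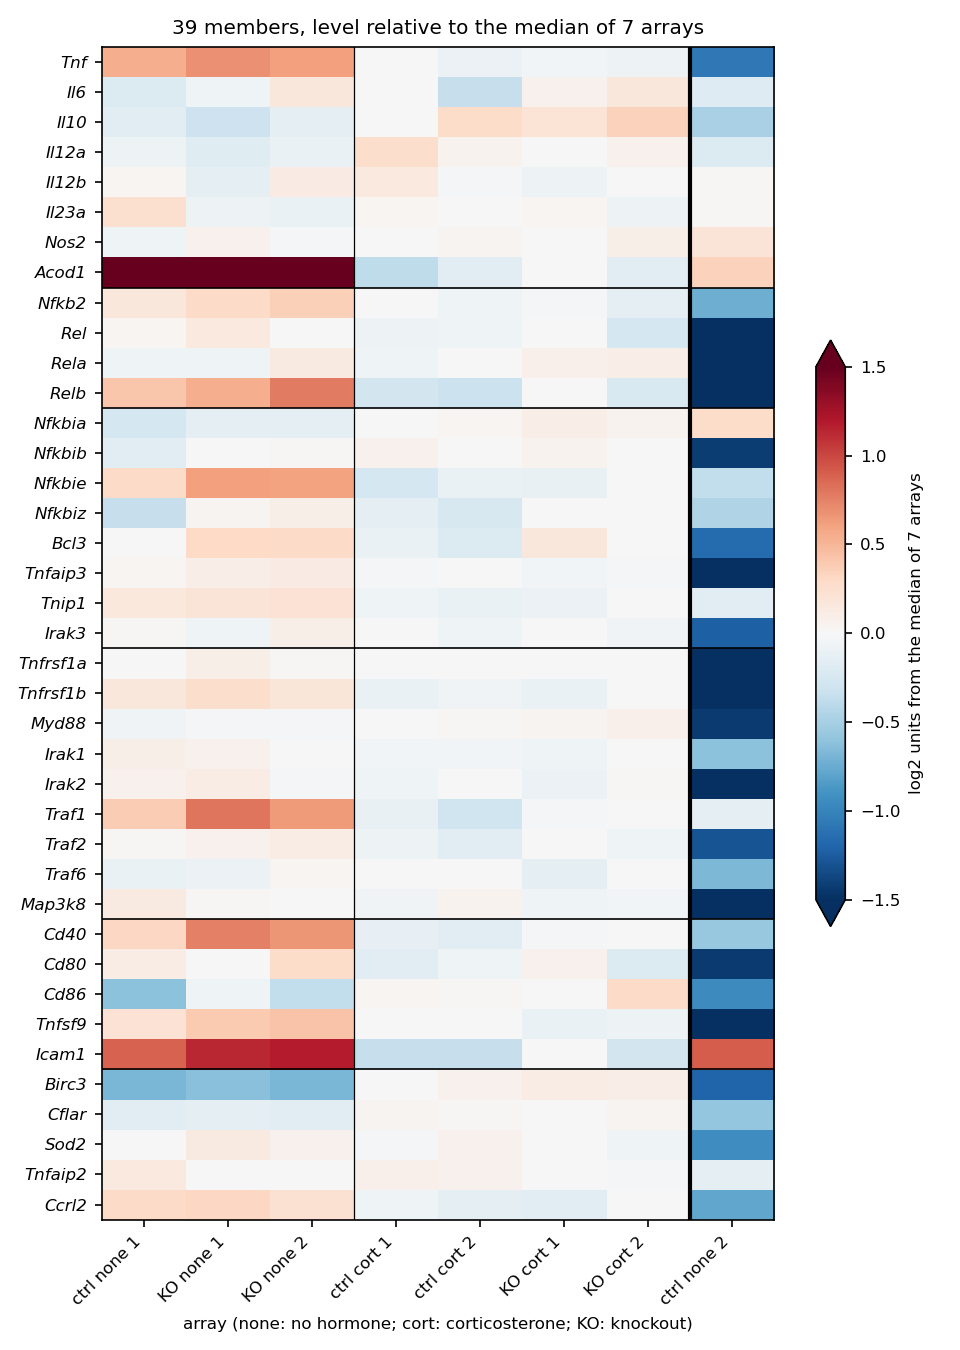
Level of each of the 39 members (rows, grouped by role) on each of the 8 arrays (columns), as log2 units from the median of the 7 arrays used. Red is higher and blue lower, and colours saturate at the ends of the scale. The 3 untreated arrays on the left and the 4 corticosterone arrays differ in Acod1, Icam1, Relb, Tnf, Cd40, Traf1 and Birc3, and control untreated replicate 2, on the far right, is low for most members.

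Among the cytokines and effector enzymes only Acod1 and Tnf fell, and they did so in both genotypes. Acod1 encodes the mitochondrial enzyme that makes itaconate in activated macrophages. It read 6.89 on control untreated replicate 1 and 7.19 and 7.22 in untreated knockout cells, against 4.79 and 5.0 with hormone in control cells and 5.17 and 5.01 in knockout cells. All treated arrays lay below all untreated ones, and control untreated replicate 2, at 5.51, lay between them. The treated levels were under the array medians, where the authors' scale compresses differences, so the percentages below hold for that scale and may understate the fall. Acod1 fell by 74.9% in control cells, a log2 difference of -1.99 (SE 0.171, adjusted p = 8.15e-05), and fell by 76.9% in knockout cells, a log2 difference of -2.11 (SE 0.14, adjusted p = 1.05e-05). With 8 arrays the differences were -1.31 (adjusted p = 0.430) and -2.11 (adjusted p = 0.350).

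Tnf, the cytokine that signals through both TNF receptors, read 8.39 on control untreated replicate 1 and 8.52 and 8.45 on the knockout untreated arrays. With hormone it read 7.84 and 7.75 in control and 7.80 and 7.76 in knockout cells, again without overlap. It fell by 0.59 (SE 0.097, adjusted p = 0.0038) in control and by 0.71 (SE 0.0792, adjusted p = 0.000282) in knockout cells. Control untreated replicate 2 read 6.77, below every other array, and with it the difference in control cells turned to 0.22 (adjusted p = 0.797).

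The other 6 members of this group lay at the low end of the scale on all arrays. Il6 ranged from 2.10 to 2.62 on the 7 arrays, Il23a from 2.63 to 2.97, Il12a from 3.64 to 4.08, Il12b from 4.10 to 4.38 and Nos2, the inducible nitric oxide synthase, from 4.38 to 4.54. All were below the array medians, no detection call was used here, and none of these 5 was called in either genotype. Il10, an anti-inflammatory cytokine, was as low, with 3.02 to 3.18 on the untreated and 3.33 to 3.68 on the treated arrays. Its rise of 0.51 in knockout cells passed narrowly (SE 0.14, adjusted p = 0.0406), was lost in 6 of the 7 fits that leave out 1 array (adjusted p 0.0511 to 0.21), and came with 0.29 in control cells (adjusted p = 0.374).

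Of the NF-kB subunits Relb fell in both genotypes and Nfkb2 in knockout cells. RelB and the product of Nfkb2 form the dimer of the non-canonical arm of the pathway. Relb read 7.60 on control untreated replicate 1 and 7.73 and 7.96 on the knockout untreated arrays. Its treated arrays lay below these, at 6.90 and 6.86 in control and 7.18 and 6.95 in knockout cells. Relb fell by 0.72 (SE 0.146, adjusted p = 0.0116) and by 0.78 (SE 0.119, adjusted p = 0.0019). With control untreated replicate 2, at 5.68, the difference in control cells was 0.24 (adjusted p = 0.815).

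In knockout cells Nfkb2 went from 8.21 and 8.28 to 7.90 and 7.78 with hormone. It fell by 0.41 there (SE 0.0844, adjusted p = 0.0107), while in control cells it went from 8.09 to 7.92 and 7.85, a difference of -0.21 that did not pass (adjusted p = 0.287). The second probe set of Nfkb2 gave -0.090 in knockout and 0.0091 in control cells. Rela, the main activating subunit of the canonical arm, stayed between 10.13 and 10.34 on the 7 arrays, with differences of 0.037 (95% interval -0.14 to 0.21) and 0.048 (-0.093 to 0.19). Rel, the subunit c-Rel, ranged from 7.40 to 7.81 and gave -0.10 (interval -0.40 to 0.20) and -0.21 (-0.46 to 0.032), neither called.

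The inhibitors did not move as one. Of 8 measured members 1 rose and 2 fell in control cells, and 1 rose and 3 fell in knockout cells. Nfkbia, which encodes IkB alpha, the inhibitor that NF-kB itself induces, read 12.28 on control untreated replicate 1 and 12.40 and 12.39 on the knockout untreated arrays. With hormone it read 12.54 and 12.57 in control and 12.64 and 12.59 in knockout cells, above all 3. It rose by 0.28 (SE 0.0346, adjusted p = 0.00077) in control and 0.22 (SE 0.0283, adjusted p = 0.000748) in knockout cells. The 5 probe sets of Nfkbia rose by 0.14 to 0.63 in control and 0.22 to 0.64 in knockout cells, so the size depends on the probe set. Control untreated replicate 2 read 12.81, above every other array, and with all 8 arrays the difference in control cells was 0.011 (adjusted p = 0.972). With that array in place of replicate 1 it was -0.26 (adjusted p = 0.000107).

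Nfkbie, which encodes IkB epsilon, another inhibitor that NF-kB induces, went the other way. It read 8.92 on control untreated replicate 1 and 9.25 and 9.23 in untreated knockout cells, and 8.37, 8.53, 8.52 and 8.63 on the treated arrays. It fell by 0.47 (SE 0.0928, adjusted p = 0.00995) in control and by 0.67 (SE 0.0758, adjusted p = 0.000305) in knockout cells, and its second probe set gave -0.55 and -0.61. On 8 arrays the control difference was -0.14 (adjusted p = 0.720). Tnip1, a partner of the ubiquitin-editing enzyme encoded by Tnfaip3, went from 10.82, 10.85 and 10.88 on the untreated arrays to 10.56 to 10.66 on the treated ones. It fell by 0.23 (SE 0.0529, adjusted p = 0.0207) and by 0.25 (SE 0.0432, adjusted p = 0.00368), with -0.077 in control cells on 8 arrays (adjusted p = 0.714). Tnfaip3 itself ranged only from 10.54 to 10.70, and its fall by 0.14 in knockout cells (SE 0.0373, adjusted p = 0.0372) was lost under 12 of 16 alternatives. Its dim second probe set gave -0.089.

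Nfkbib, which encodes IkB beta, gave 0.20 in control and 0.014 in knockout cells, and Bcl3, a nuclear IkB protein, -0.15 and -0.22, none called. Irak3, a decoy kinase that dampens Toll-like receptor signals, ranged from 9.93 to 10.09 and gave -0.050 (interval -0.22 to 0.12) and -0.033 (interval -0.17 to 0.10). Nfkbiz, a nuclear IkB protein that promotes secondary response genes such as Il6, read 7.94 on control untreated replicate 1 and 8.15 and 8.05 in control cells with hormone. Knockout cells read 8.33 and 8.38 untreated and 8.29 and 8.30 treated. On this probe set the treated arrays lay above the untreated array in control cells and below both in knockout cells. Neither difference passed, at 0.16 (adjusted p = 0.378) and -0.060 (adjusted p = 0.716), and neither did the difference between them, at -0.22 (SE 0.12, adjusted p = 0.892). The other probe sets of Nfkbiz gave 0.20 and 0.27 in control and 0.18 and -0.10 in knockout cells, in the same order.

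Sequence in front of the start sites was searched because several of these inhibitors are NF-kB targets whose levels moved in opposite directions. Windows of 250 bases before the start, from RefSeq on GRCm38.p6, were matched for 31 of the 42 members, and both strands were searched for the 10-base NF-kB consensus. A match lay in a window of 9 of the 31 members (29.0%), against 4.46% of 27025 genes with a window and 3.90% of 32851 windows. The list was made to hold NF-kB targets, so a higher share among the members was built into it. The members with a match were Il6, Nfkb2, Rel, Nfkbia, Nfkbie, Tnfaip3, Tnip1, Sod2 and Ccrl2. Of the 13 members called the same way in both genotypes 11 had a window and 4 of these held a match, against 5 of 19 other measured members. The 4 windows are printed for that reason, 5′ to 3′ on the strand of the gene, with the match in capitals. Nfkbie, Ccrl2 and Tnip1 fell and Nfkbia rose, so both directions occurred with a match. In Tnip1 the capitals are 3 overlapping matches. The windows lie at chr17:45555450-45555699 (plus strand, Nfkbie), chr9:111057519-111057768 (minus strand, Ccrl2), chr11:54962941-54963190 (minus strand, Tnip1) and chr12:55492648-55492897 (minus strand, Nfkbia). The palindromic glucocorticoid response element was in no window of the 31 members and in 0.44% of the 27025 genes with a window. At so low a share, finding none among 31 members says nothing about them. Other forms of the element and sequence outside these windows were not searched.
Nfkbie: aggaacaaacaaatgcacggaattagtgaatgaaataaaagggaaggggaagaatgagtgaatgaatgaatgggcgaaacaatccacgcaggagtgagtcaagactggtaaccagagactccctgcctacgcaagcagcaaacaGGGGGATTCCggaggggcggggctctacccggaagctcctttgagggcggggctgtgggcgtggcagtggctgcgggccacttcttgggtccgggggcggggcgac
Ccrl2: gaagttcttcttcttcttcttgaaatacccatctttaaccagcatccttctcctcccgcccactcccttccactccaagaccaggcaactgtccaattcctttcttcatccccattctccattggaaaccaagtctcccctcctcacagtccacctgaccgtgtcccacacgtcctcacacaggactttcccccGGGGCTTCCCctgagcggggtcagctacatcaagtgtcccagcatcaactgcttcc
Tnip1: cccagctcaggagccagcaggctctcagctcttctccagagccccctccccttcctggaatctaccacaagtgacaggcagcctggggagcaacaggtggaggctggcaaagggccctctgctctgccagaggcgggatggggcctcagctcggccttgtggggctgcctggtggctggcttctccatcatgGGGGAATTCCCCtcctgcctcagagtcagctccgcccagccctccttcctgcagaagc
Nfkbia: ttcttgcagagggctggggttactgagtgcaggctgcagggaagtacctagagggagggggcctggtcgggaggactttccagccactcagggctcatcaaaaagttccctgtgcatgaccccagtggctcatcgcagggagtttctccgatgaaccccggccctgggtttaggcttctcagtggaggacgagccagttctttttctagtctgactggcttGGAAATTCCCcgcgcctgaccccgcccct

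Most of the receptors, adaptors and kinases were not called. Of 9 measured members Traf1 and Tnfrsf1b fell in both genotypes and 7 did not pass in either. Traf1, an adaptor of TNF family receptors, read 7.12 on control untreated replicate 1 and 7.54 and 7.38 on the knockout untreated arrays. Its treated arrays read 6.63 and 6.44 in control and 6.72 and 6.74 in knockout cells, all lower. It fell by 0.58 (SE 0.143, adjusted p = 0.0301) and by 0.73 (SE 0.117, adjusted p = 0.00251). On 8 arrays control cells differed by -0.33 (adjusted p = 0.442). A second, dim probe set of Traf1, at a mean of 3.28, gave 0.34 in control and -0.59 in knockout cells.

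Tnfrsf1b, the TNF receptor carried mainly by immune cells, read 11.81, 11.90 and 11.82 on the untreated arrays and 11.54 to 11.64 on the treated ones. It fell by 0.25 (SE 0.0527, adjusted p = 0.0157) and by 0.28 (SE 0.043, adjusted p = 0.0022). Control untreated replicate 2 read 9.96, and with it the difference in control cells turned to 0.68 (adjusted p = 0.478). Tnfrsf1a, the widely expressed TNF receptor, differed by -0.014 (interval -0.11 to 0.086) and -0.060 (interval -0.14 to 0.022). Myd88, the adaptor shared by most Toll-like receptors, gave 0.058 and 0.083, and Irak1 and Irak2, the kinases that bind it, between -0.13 and -0.069. The adaptors Traf2 and Traf6 gave between -0.14 and 0.11, and Map3k8, a kinase upstream of ERK, -0.14 and -0.061. None of these was called.

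The co-stimulatory and adhesion molecules split. Icam1, the endothelial and leukocyte ligand of integrins, read 10.06 on control untreated replicate 1, 10.31 and 10.36 on the knockout untreated arrays, 8.84 and 8.83 with hormone in control cells and 9.18 and 8.90 in knockout cells. The treated arrays lay far below the untreated ones, and control untreated replicate 2, at 10.09, sat beside its replicate. Icam1 fell by 57.3% (log2 difference -1.23, SE 0.10, adjusted p = 6.46e-05) in control cells and fell by 59.1% (log2 difference -1.29, SE 0.082, adjusted p = 8.27e-06) in knockout cells. With 8 arrays the differences were -1.24 and -1.29, of nearly the same size.

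Cd40, a receptor through which T cells activate macrophages and B cells, read 9.51 on control untreated replicate 1 and 9.95 and 9.86 on the knockout untreated arrays. With hormone it read 9.08 and 9.04 in control and 9.17 and 9.20 in knockout cells. It fell by 0.45 (SE 0.0687, adjusted p = 0.00239) and by 0.72 (SE 0.0561, adjusted p = 2.96e-05), and its other 2 probe sets gave -0.45 and -0.44 in control and -0.65 in knockout cells. With 8 arrays the difference in control cells was -0.013 (adjusted p = 0.981). Tnfsf9, the ligand of a T cell co-stimulatory receptor, fell by 0.50 in knockout cells (SE 0.0806, adjusted p = 0.00267), from 8.08 and 8.12 to 7.59 and 7.61. In control cells it went from 7.91 to 7.69 on both treated arrays, a difference of -0.22 (adjusted p = 0.233).

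Of the B7 ligands that bind CD28, Cd86 rose in control cells and Cd80 was not called. Cd86 read 8.03 on control untreated replicate 1 and 8.68 and 8.67 on the treated control arrays, a rise of 0.65 (SE 0.142, adjusted p = 0.0176). In knockout cells it read 8.58 and 8.28 untreated and 8.65 and 8.94 with hormone, a difference of 0.37 that did not pass (adjusted p = 0.0735). The response was not shown to differ between genotypes (interaction -0.29, SE 0.183, adjusted p = 0.911). Cd80 ranged from 8.43 to 8.90, with differences of -0.23 and -0.20 (adjusted p = 0.404 and 0.317).

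Of the survival and other target genes Birc3 and Cflar rose in both genotypes. Birc3, an inhibitor of apoptosis and ubiquitin ligase of TNF receptor complexes, read 9.95, 10.00 and 9.95 on the untreated arrays and 10.63, 10.69, 10.74 and 10.73 on the treated ones, with no overlap. It rose by 64.0% (log2 difference 0.71, SE 0.0521, adjusted p = 3.05e-05) in control and 69.4% (log2 difference 0.76, SE 0.0425, adjusted p = 3.71e-06) in knockout cells. Its second probe set gave 0.88 and 0.83. With 8 arrays the differences were 0.97 (adjusted p = 0.210) and 0.76 (adjusted p = 0.445), as control untreated replicate 2 read 9.43.

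Cflar, which encodes an inhibitor of caspase-8 activation, rose by 0.19 (SE 0.0416, adjusted p = 0.0177) and 0.18 (SE 0.034, adjusted p = 0.00643), from 10.97 to 10.99 on the untreated arrays to 11.14 to 11.18 on the treated ones. On 8 arrays control cells differed by 0.40 (adjusted p = 0.430). Its other 4 probe sets gave 0.33 to 0.48 and 0.28 to 0.35. Ccrl2, a receptor that presents chemerin, fell by 0.40 (SE 0.0846, adjusted p = 0.0154) and by 0.35 (SE 0.0691, adjusted p = 0.00778), from 9.53 to 9.61 down to 9.13 to 9.30. Control untreated replicate 2 read 8.52, and with it the difference in control cells turned to 0.14 (adjusted p = 0.812). Sod2, the mitochondrial superoxide dismutase, gave 0.023 and -0.13 (adjusted p = 0.858 and 0.0707), and Tnfaip2 -0.079 and -0.019, none called.

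**Figure D2:**
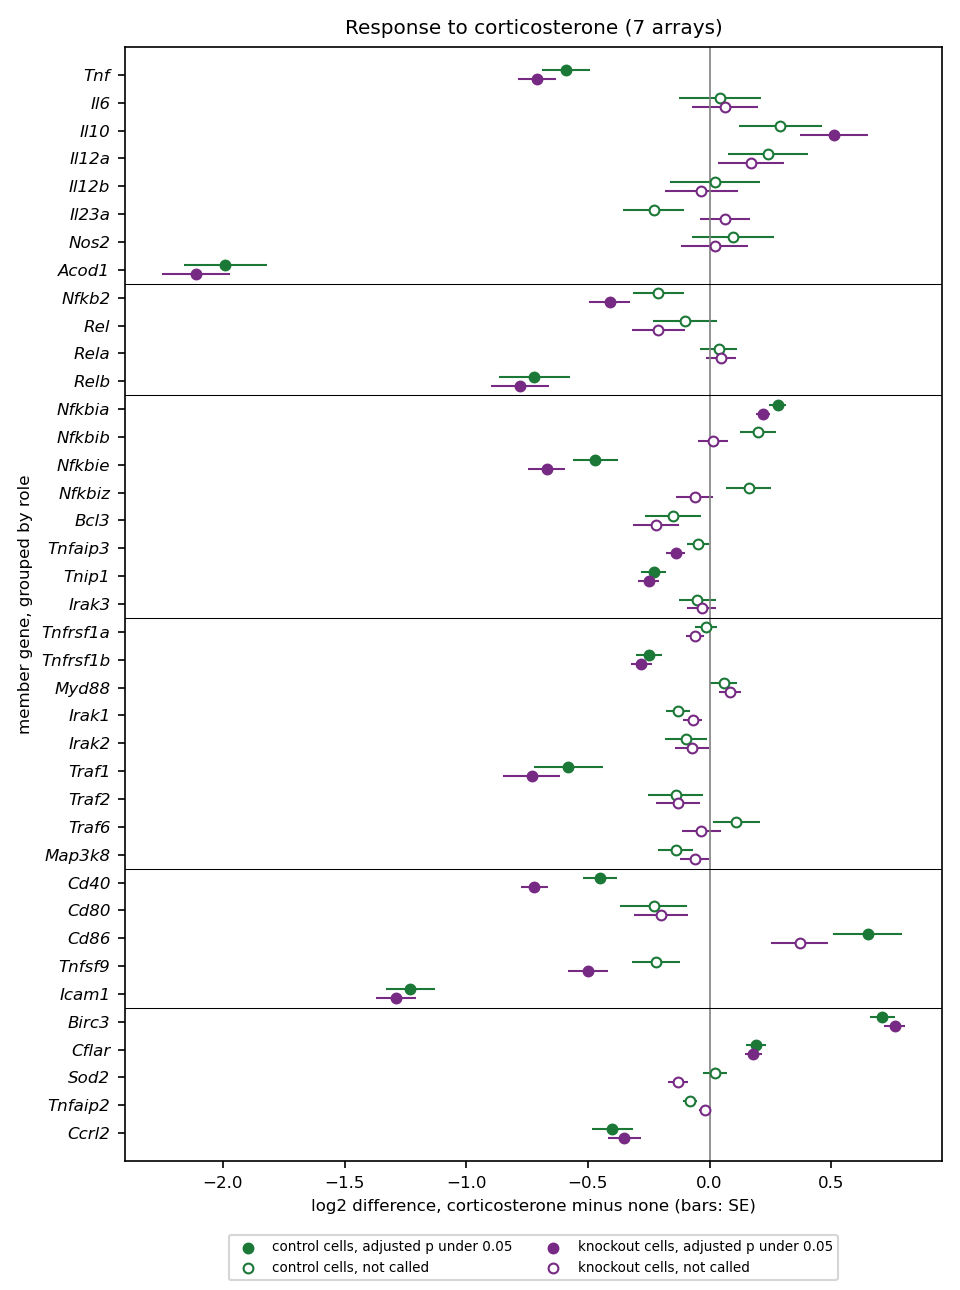
Log2 difference between corticosterone and no hormone for each of the 39 members (rows, grouped by role) in control cells (green) and knockout cells (purple), with SE as bars, from the fit of 7 arrays. Filled points have an adjusted p under 0.05. Acod1, at -1.99 and -2.11, and Icam1, at -1.23 and -1.29, lie farthest to the left, and Birc3, at 0.71 and 0.76, lies to the right in both genotypes.

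**Figure D3:**
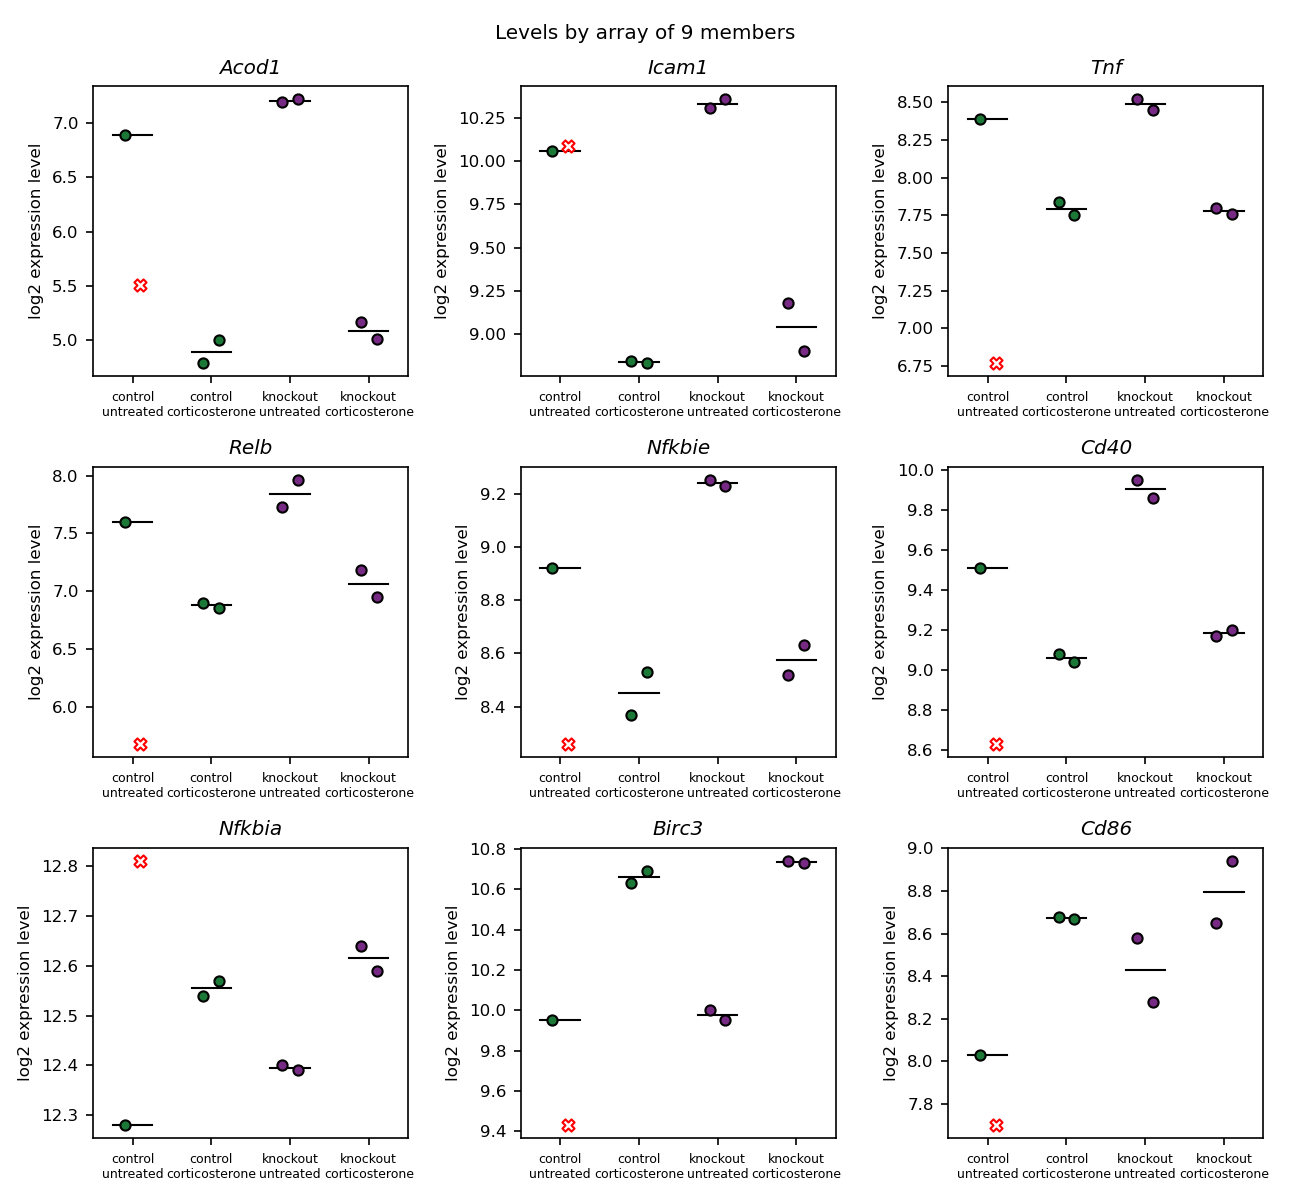
Log2 level of 9 members on each array, by group. Green points are control and purple points knockout arrays, lines are group means of the arrays used, and the red cross is control untreated replicate 2, which is left out of the means. Acod1, Icam1, Tnf, Relb, Nfkbie and Cd40 are lower with hormone in both genotypes, Nfkbia and Birc3 are higher, and the cross falls away from its replicate for most genes but not for Icam1.

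Markers of several other cell types moved beside these members. On the 7 arrays the mean of 9 B cell markers was 7.54, 7.77 and 7.67 untreated and between 6.48 and 6.53 treated. Of the 9 markers 8 fell in each genotype. Control untreated replicate 2 averaged 6.46 for them, below all treated arrays. Ms4a1, which encodes CD20, went from 8.74, 9.16 and 8.89 to between 6.99 and 7.18. The mean of 12 T and NK cell markers went from 5.60 to 5.69 down to 4.70 to 4.81, with 6 falling in control and 7 in knockout cells. For 7 dendritic cell markers the means were 5.45 to 5.72 untreated and 4.84 to 5.16 treated. In each genotype 2 of them fell, and in knockout cells 1 rose. On control untreated replicate 2 the dendritic cell mean was 5.02, within the treated range, and the T and NK cell mean was 5.63. Of these lists 2 B cell, 8 T and NK cell and 5 dendritic cell markers had a mean level under 6; Pax5 ranged from 3.27 to 3.51 and Ncr1 from 3.07 to 3.28 on the 7 arrays. In RNA of whole cultures, fewer cells of a type and less RNA per cell cannot be told apart. B cells and dendritic cells are known to express Cd40, Traf1, Relb, Nfkbie, Nfkb2 and Cd86, and the part of these cells in the differences was not tested. The mean of 7 mast cell and basophil markers went the other way, from 5.11 to 5.36 untreated to 5.65 to 5.86 treated, and 3 rose in each genotype. Of 5 eosinophil markers 1 fell in control and 2 in knockout cells, and the means went from 5.23 to 5.41 down to 4.83 to 4.96. On control untreated replicate 2 the mast cell and basophil mean was 4.45 and the eosinophil mean 4.95. A mean level under 6 held for 4 of the 7 mast cell and basophil and 4 of the 5 eosinophil markers. Of 6 neutrophil markers, 4 of them under 6, 1 rose and 1 fell in each genotype. Of 10 fibroblast and mesothelial markers, 5 of them under 6, 1 fell in control and 2 rose in knockout cells. Of the 9 macrophage markers 4 rose and 1 fell in each genotype.

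**Figure D4:**
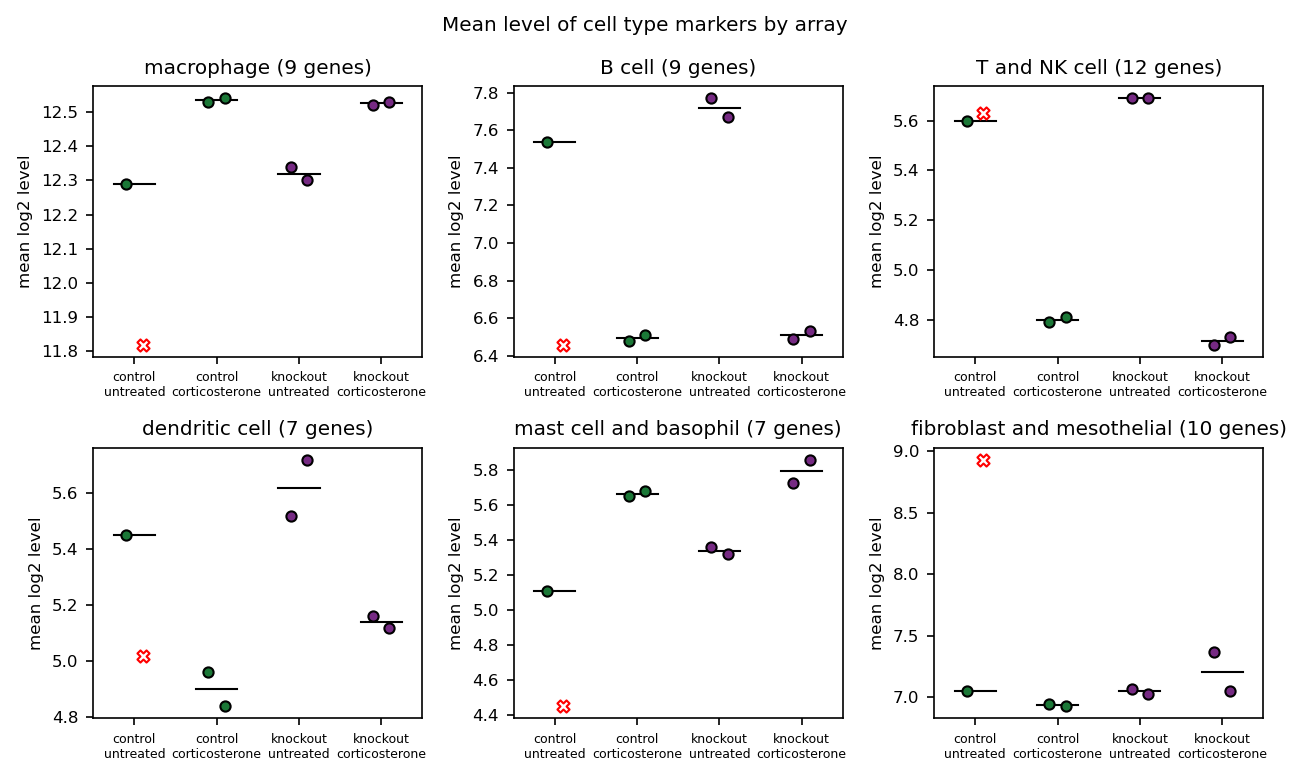
Mean log2 level of the measured markers of 6 cell types on each array, with colours, lines and the red cross as in the plot of member levels by array. B cell and T and NK cell means drop with corticosterone in both genotypes on the arrays used. They go from 7.54 and 5.60 on control untreated replicate 1 to 6.48 and 4.79 on control corticosterone replicate 1. On control untreated replicate 2 the B cell mean is 6.46, below the treated arrays, and the fibroblast and mesothelial mean is 8.93.

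A further 40 regulators of the pathway were listed, of which 36 were measured. In control cells 5 rose and 3 fell, and in knockout cells 3 rose and 6 fell, with medians of 0.011 and -0.0026. These counts, 8 and 9 of 36, stand beside 10.8% and 13.7% of all genes. The 4 with the smallest p were the same in both genotypes. Nfkbid, another nuclear IkB protein, read 9.31, 9.27 and 9.42 untreated and 8.24 to 8.36 treated, and fell by 1.05 (SE 0.0884, adjusted p = 7.47e-05) and by 1.01 (SE 0.0722, adjusted p = 1.71e-05). Malt1, a protease of antigen receptor signalling, went from 10.40 to 10.51 down to 9.43 to 9.66, and fell by 0.96 (adjusted p = 0.000124) and by 0.94 (adjusted p = 2.71e-05). Tnfrsf11a, which encodes RANK, went from 7.95 to 8.16 up to 8.72 to 8.81, and rose by 0.80 (adjusted p = 0.000784) and 0.67 (adjusted p = 0.000518). Peli2, a ubiquitin ligase of IRAK complexes, rose by 0.46 and 0.42 (adjusted p = 0.00583 and 0.00238). With all 8 arrays none of these 4 was called, and the differences in control cells were -0.21 for Nfkbid (adjusted p = 0.808), -0.04 for Malt1 (adjusted p = 0.970), 1.25 for Tnfrsf11a (adjusted p = 0.381) and 0.90 for Peli2 (adjusted p = 0.430). Of the IkB kinase core, Ikbkb and Ikbkg were called in neither genotype.

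Few members were called between knockout and control cells. Without hormone 2 of 39 passed, Cd40 higher and Tnfaip2 lower, 5.13% against 1.99% of all genes (1.43% higher and 0.555% lower). With hormone 0 of 39 were called by limma (1.63% of all genes), with an unadjusted p under 0.05 for 4 (9.82% of all genes). With all 8 arrays limma called 0 members and 0 genes in either comparison; the unadjusted p was under 0.05 for 5 members without hormone (4.44% of all genes) and 0 with it (1.26%). Cd40 was higher in knockout cells by 0.39 (SE 0.0687, adjusted p = 0.0246), at 9.90 ± 0.066 (SD, n = 2) against 9.51 on the single control array. Its other probe sets gave 0.33 and 0.43. The call was lost under 8 of 16 alternatives, among them the fit without the variance trend and that of the compared groups only. It was lost without either control corticosterone array (adjusted p = 0.08 and 0.0797), and with all 8 arrays the difference was 0.83 (adjusted p = 0.486). With hormone Cd40 differed by 0.12 (SE 0.0561, adjusted p = 0.530). Beside it the B cell markers averaged 7.77 and 7.67 in knockout cells and 7.54 on the control array, and the part of B cells in the difference was not tested.

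Tnfaip2, a TNF-induced gene, read 12.90 on control untreated replicate 1 and 12.75 on both knockout untreated arrays, lower by a log2 difference of -0.15 (SE 0.0293, adjusted p = 0.0324). The call was lost under 13 of 16 alternatives, the other 2 probe sets gave -0.006 and 0.00039, and with control untreated replicate 2 alone as control, at 12.60, it turned to 0.14. Nfkbiz came next, higher by 0.42 without hormone (SE 0.0931, adjusted p = 0.0649). Its 2 other probe sets gave 0.28 and 0.51.

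Whether called or not, 28 of the 39 members were higher in knockout cells without hormone (71.8%, against 53.8% of all genes) and 24 with hormone (61.5%, against 50.1%). Of the 36 other measured regulators of the pathway 25 were higher without hormone (69.4%) and 16 with it (44.4%). The share without hormone was thus not particular to the members. All differences without hormone share the single control array. The medians of the members were 0.072 and 0.021, against 0.036 and -0.004 for these regulators and 0.013 and 0.00014 over all genes. By role, all 4 NF-kB subunits, 7 of 8 inhibitors and all 5 co-stimulatory and adhesion molecules were on the higher side without hormone, with group medians of 0.13, 0.15 and 0.27. The receptors, adaptors and kinases stood at 6 of 9 (median 0.046), the cytokines and effector enzymes at 4 of 8 (0.028) and the survival and other target genes at 2 of 5 (-0.00052). With hormone the subunits stood at 2 of 4 (0.039), the inhibitors at 6 of 8 (0.046) and the co-stimulatory and adhesion molecules at 4 of 5 (0.12). Also with hormone, the receptors, adaptors and kinases stood at 6 of 9 (0.0057). The cytokines and effector enzymes then stood at 4 of 8 (0.00077) and the survival and other target genes at 2 of 5 (-0.0099). Acod1 gave 0.32 and 0.20, Icam1 0.27 and 0.21, Relb 0.25 and 0.19, Traf1 0.35 and 0.20 and Nfkbie 0.32 and 0.12 without and with hormone, none called.

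**Figure D5:**
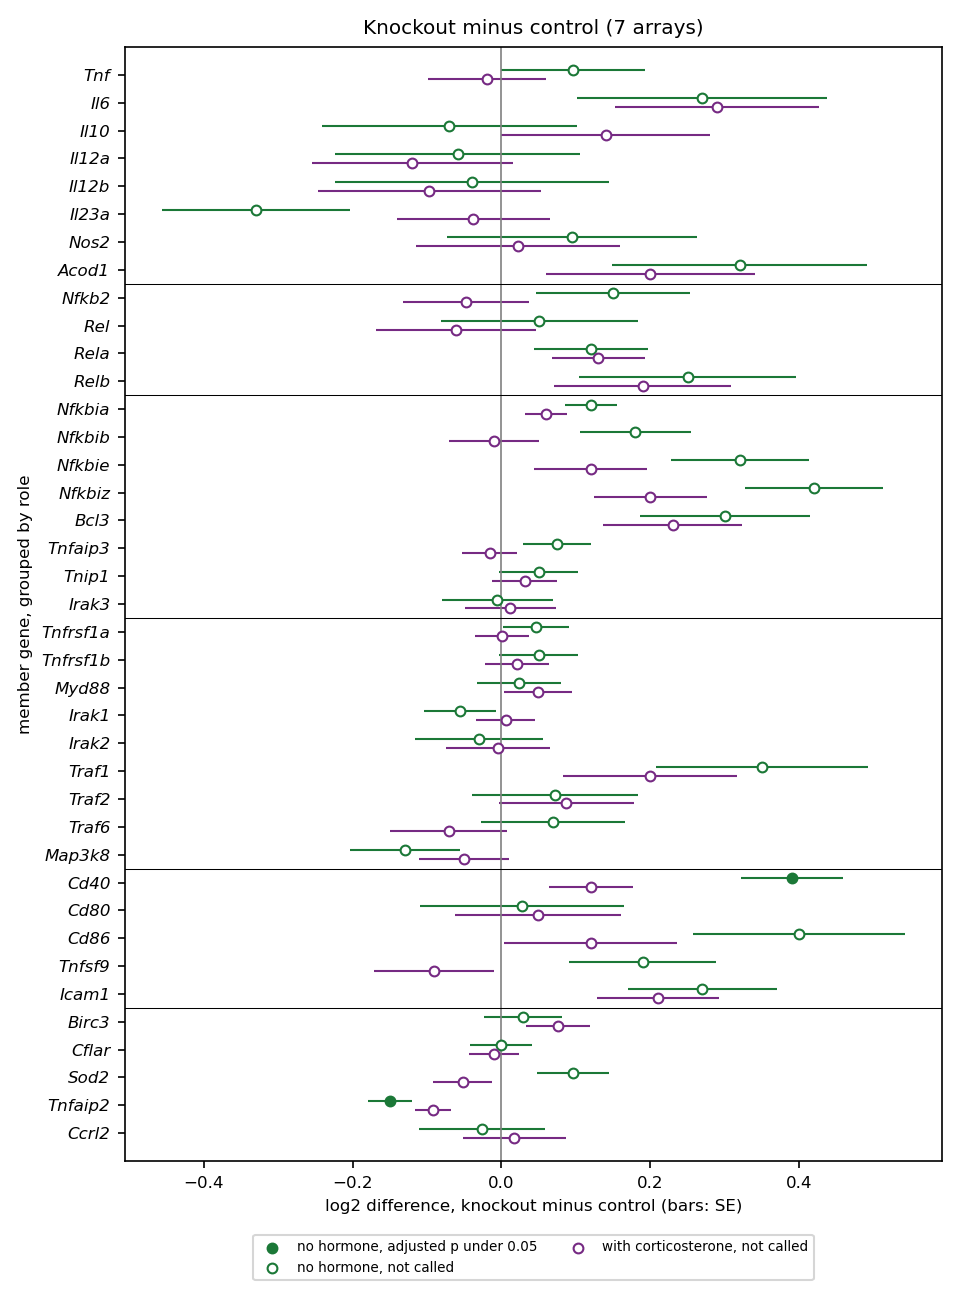
Log2 difference between knockout and control for each of the 39 members (rows, grouped by role), without hormone (green) and with corticosterone (purple), with SE as bars, from the fit of 7 arrays. Filled points, Cd40 at 0.39 and Tnfaip2 at -0.15, have an adjusted p under 0.05, both without hormone. The other points lie between -0.33 and 0.42.

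The hormone response of the members was not shown to depend on the receptor. limma called 0 of the 39 interactions, the response in knockout minus that in control cells (0.0165% of all genes), and 2 had an unadjusted p under 0.05 (5.85% of all genes), Cd40 at -0.27 and Sod2 at -0.15. With 8 arrays limma called 0, and 0 members had an unadjusted p under 0.05 (1.09% of all genes). The estimates ran from -0.29 for Cd86 to 0.29 for Il23a, with a median SE of 0.12. For Acod1 and 3 others that fell in both genotypes the 95% intervals of the interaction were -0.62 to 0.38 for Acod1, -0.35 to 0.23 for Icam1, -0.40 to 0.17 for Tnf and -0.48 to 0.37 for Relb. For the members that rose in both genotypes they were -0.16 to 0.040 for Nfkbia, -0.11 to 0.20 for Birc3 and -0.13 to 0.11 for Cflar. Differences between genotypes within these intervals remain compatible with the values of these arrays.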

How the data were processed

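RNA of 8 samples was hybridised to Affymetrix mouse arrays. The deposited values are log2 levels per probe set, made with RMA in R 2.7 per the submitters' processing notes. RMA subtracts background and makes array distributions alike, so values are relative within an array and low values are compressed. Of 45101 probe sets 64 were controls, 34945 others named 1 gene in GEO's platform annotation, 932 named several, and 9160 carry no name in this work. Symbols were matched by identifier to the gene table of GRCm38.p6 for 34741 of them. A gene was read by the brightest of its probe sets, by the mean of 8 arrays.

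limma 3.58.1 in R 4.3.3 was fitted over all 18193 genes with 1 coefficient per group, a variance trend and Benjamini-Hochberg adjustment over all genes. Control untreated replicate 2 was left out of the fit (7 arrays, 3 residual degrees of freedom) because of its 3′ minus 5′ signals and its correlation with the others; 8 arrays are given beside it. The members, lists, tests and this exclusion were chosen with earlier results of these data known. All members are named; of other pathway genes, up to 4 per hormone contrast with the smallest p; promoters by the rule given with them. No batch is given in the labels. Replicate numbers were not taken to pair the samples: deviations of same-numbered arrays from their group means correlated at -0.292 to 0.397 between groups, and not every pair was over 0.1.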

Additional observations from a re-analysis of the deposited data

How the results depend on the processing

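The counts of called members, 14 in control and 17 in knockout cells for corticosterone, 2 and 0 for the knockout without and with hormone and 0 for the interaction, depended most on control untreated replicate 2. With all 8 arrays each count was 0, and with array weights on 8 arrays they were 0, 15, 0, 0 and 0. Both control untreated arrays got the same weight, 0.0506, against 2.02 to 3.25 for the others. The weighted fit therefore could not set replicate 2 apart from replicate 1. Without the variance trend the counts were 5, 10, 0, 0 and 0. The knockout comparison without hormone gave 0 when only the compared groups were fitted and 1 after cyclic loess. Leaving out 1 array at a time gave 6 to 31, 13 to 17, 0 to 32, 0 and 0 to 32 calls, and the counts of 31, 32 and 32 came with control untreated replicate 2 as the only untreated control. With the replicate number as a block the counts were 11, 16, 0, 0 and 0 on 7 arrays and 0 each on 8 arrays. The counts in this paragraph are not set beside shares of all genes and show only how the calls moved. The mean of probe sets and leaving out genes with a mean under 6 (32 members tested) moved no count by over 1.5 times.

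Directions in control cells turned only with control untreated replicate 2. On all 8 arrays, plain, weighted or with the replicate block, the hormone difference was 0.22 for Tnf, 0.24 for Relb, 0.68 for Tnfrsf1b and 0.14 for Ccrl2. With that array as the only untreated control it was 1.03 for Tnf, 1.20 for Relb, -0.26 for Nfkbia, 0.19 for Nfkbie, 0.08 for Tnip1, 1.60 for Tnfrsf1b, 0.43 for Cd40 and 0.68 for Ccrl2, and the knockout difference of Tnfaip2 was 0.14. At the other end of the fits that leave out 1 array, these values were -0.64, -0.74, 0.29, -0.55, -0.25, -0.27, -0.48 and -0.43, in the same order, and -0.15 for Tnfaip2. Over all settings 362 values of single genes kept direction and call, 142 lost the call and 21 turned; the cause was not tested.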
